A study of Mus musculus with 9 samples.

Results

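The triglyceride synthesis enzymes described here are 9 genes, Gpam, Agpat2, Agpat3, Lpin1, Lpin2, Dgat1, Dgat2, Mogat1 and Pnpla3, out of 54007 rows in a table of liver transcript levels. They were chosen by name, as acylating enzymes and phosphatases of the glycerolipid route, and each matched 1 row through its Ensembl identifier. The table holds FPKM, a read count scaled by transcript length and library size, so levels of different genes are compared per length. The study measured liver RNA of C57BL/6 mice at postnatal day 98, from 45 animals aged 6 weeks at the start and assigned in groups of 15. The control group has no further label, the second group received a high-fat diet (HFD), and the last received the high-fat diet with Papillibacter cinnamivorans, a gut bacterium, by gavage (HFD+Pc). Each group has 3 libraries, numbered 1, 2 and 4 for control, 1, 2 and 3 for HFD, and 1, 3 and 4 for HFD+Pc. The labels do not give the diets' composition, the dose of bacteria or a vehicle for the other groups. They also do not say whether a library came from 1 mouse or from pooled mice, so p-values measure only the spread between these libraries.

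Triglyceride is built on a glycerol backbone by successive acylations. A glycerol-3-phosphate acyltransferase adds the first fatty acid, an acylglycerol-phosphate acyltransferase adds the next to give phosphatidate, a lipin removes the phosphate to give diacylglycerol, and a diacylglycerol acyltransferase completes the molecule. A shorter route, prominent in the intestine and induced in fatty mouse liver, acylates monoacylglycerol to diacylglycerol. Liver uses the product for storage in lipid droplets and for secretion in very-low-density lipoprotein.

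Whole reads recovered from the FPKM steps came to 16560130 to 18927949 per library, and 10323 to 10587 genes reached 1 FPKM. All 18 hepatocyte markers on a fixed list were measured above the filter, with a summed level of 69871 to 71345 FPKM in control, 51833 to 55463 in HFD and 58906 to 74750 in HFD+Pc. Alb, albumin, alone held 38002 to 39245 FPKM of this sum in control, 26086 to 27141 in HFD and 28977 to 41658 in HFD+Pc. The libraries of a group were not alike in lipogenic transcripts. HFD replicate 3 held 3173 FPKM of Scd1, the main stearoyl-CoA desaturase of liver, against 226 and 241 in HFD replicates 1 and 2. HFD+Pc replicate 1 held 20.6 FPKM of Fasn, fatty acid synthase, against 61.4 and 62.9 in replicates 3 and 4. Scd1 did not follow Fasn there, at 2609 FPKM in replicate 1 against 2077 and 2111 in replicates 3 and 4. In HFD replicates 1, 2 and 3 Fasn was at 18.7, 23.2 and 52.5 FPKM. For Gpam, Lpin1 and Lpin2, values without HFD replicate 3 and without HFD+Pc replicate 1 are also given.

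Against control, HFD livers held more Mogat1 transcript and less Agpat2 and Agpat3. HFD+Pc livers held more Gpam and Mogat1 and less Agpat2 and Agpat3. Each statement rests on an adjusted p under 0.05 from limma on log2(FPKM + 1) over the 10988 genes that reached 1 FPKM in 3 or more libraries. In HFD against control 1 member rose and 2 fell of 8 tested, where 9.97% of all tested genes passed, 4.61% upward and 5.35% downward. In HFD+Pc against control 2 rose and 2 fell, where 23.1% of all tested genes passed, 11.1% upward and 11.9% downward. No member passed in HFD+Pc against HFD, where 0.628% of all tested genes did, although Agpat2 had an unadjusted p under 0.05, both in limma and in limma-voom on the recovered reads. Pnpla3 reached 1 FPKM in only 2 libraries and was fitted with a lower filter of 0.1 FPKM. Mogat1 passed the filter through its HFD and HFD+Pc libraries alone, so its entry into the test already required a difference. Both comparisons with control use the same 3 control libraries, so their calls are not independent of each other.

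**Figure D1:**
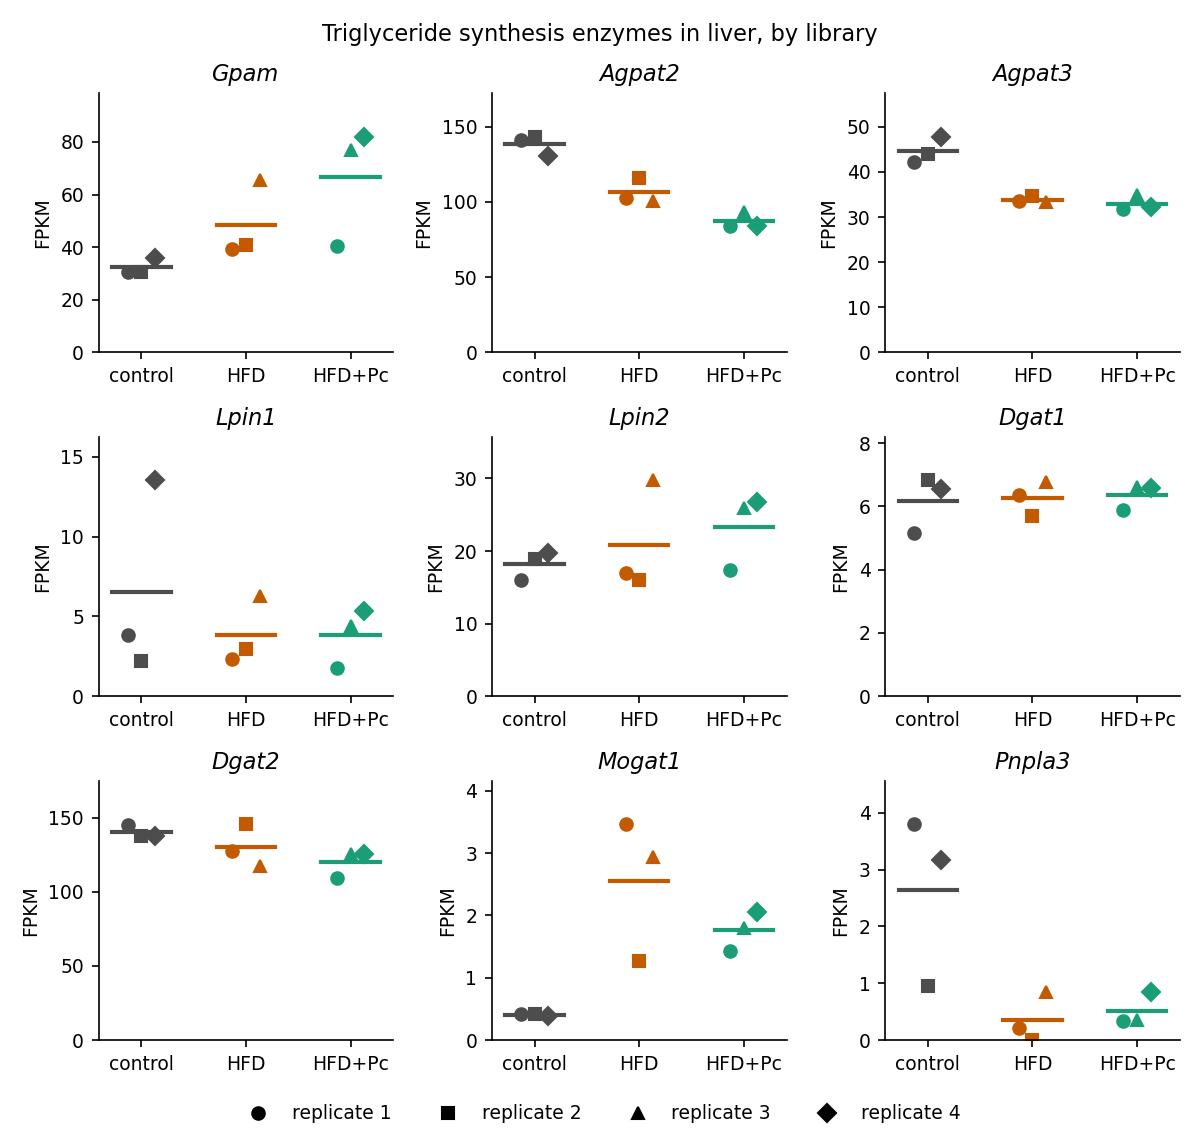
Transcript level in FPKM (y axis, from 0, one scale per gene) of the 9 enzymes in 3 control, 3 HFD and 3 HFD+Pc libraries; each symbol is 1 library, its shape gives the replicate number and the bar is the group mean. Mogat1 in HFD and HFD+Pc sits above all control libraries, Agpat2 and Agpat3 sit below them, and Gpam in HFD replicate 3 and HFD+Pc replicates 3 and 4 lies well above the other 6 libraries.

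Gpam encodes the mitochondrial glycerol-3-phosphate acyltransferase, which catalyses the committed step of glycerolipid synthesis from newly made fatty acids in liver. Its promoter window is shown because Gpam catalyses the first step and rose in HFD+Pc. The window runs from 250 bases before to 50 bases after the first of its RefSeq starts on GRCm38.p6, chr19:55127189-55127488, minus strand. The window of another Gpam start, chr19:55099428-55099727, is not shown and held GGGCGG read on the opposite strand. In the window shown, capitals mark the only match to the motifs searched, CCAAT read on the opposite strand.
Gpam: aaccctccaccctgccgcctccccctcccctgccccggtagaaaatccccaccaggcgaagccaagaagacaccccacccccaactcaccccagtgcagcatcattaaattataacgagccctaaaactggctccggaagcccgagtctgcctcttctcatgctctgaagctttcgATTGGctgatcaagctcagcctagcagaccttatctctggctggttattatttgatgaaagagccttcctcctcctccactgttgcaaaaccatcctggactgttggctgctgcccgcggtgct

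The match is a description of the letters in the window and not a measured site. The motifs searched, on both strands, were a sterol response element core (TCACNCCAC), the E-box bound by ChREBP and USF factors (CACGTG), the NF-Y box (CCAAT), the GC box of Sp1 (GGGCGG) and the TATA box (TATAAA). Among 32851 promoter windows of the same length, the sterol response element core was held by 1.24%, the E-box by 7.15%, the NF-Y box by 37.4%, the GC box by 35.7% and the TATA box by 13.6%. RefSeq windows were matched for 7 of the 9 members, Dgat1 and Dgat2 being the exceptions, and gave 10 windows in all.

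Gpam was measured at 30.7, 30.5 and 35.9 FPKM in control replicates 1, 2 and 4. HFD replicates 1, 2 and 3 gave 39.2, 41.0 and 65.4 FPKM, and HFD+Pc replicates 1, 3 and 4 gave 40.6, 77.0 and 82.0 FPKM. Every HFD and HFD+Pc library lay above every control library, while the HFD and HFD+Pc libraries overlapped. The mean rose from 32.4 ± 3.05 FPKM in control to 66.5 ± 22.6 in HFD+Pc (SD, n = 3 each), a ratio of 2.06. On the log2(FPKM + 1) scale the difference was 0.96 ± 0.27 (SE; limma adjusted p = 0.0348). The HFD mean was 48.5 ± 14.7 FPKM, 0.53 ± 0.27 above control, which did not pass (limma adjusted p = 0.239).

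The Gpam call depended on single libraries. Without HFD+Pc replicate 1 the difference from control was 1.27 (limma adjusted p = 0.00772), and without HFD+Pc replicate 3 or 4 it was 0.82 or 0.78 and no longer passed. It also missed the threshold without any 1 of the 3 control libraries and without HFD replicate 2, the highest adjusted p being 0.116. A filter of 0.1 FPKM, no filter and limma-voom on the recovered reads each ended the call as well. Without HFD replicate 3 the HFD difference was 0.30 instead of 0.53. The gap between HFD+Pc and HFD was 0.42 ± 0.27 (limma adjusted p = 0.503) with all libraries, 0.65 without HFD replicate 3 and 0.74 without HFD+Pc replicate 1, and passed in none of these.

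The libraries high in Gpam were also those high in Fasn, at 52.5 FPKM in HFD replicate 3 and 61.4 and 62.9 in HFD+Pc replicates 3 and 4, against 16.7 to 37.8 in the other 6. Insig1, a sterol-regulated inhibitor of SREBP processing, was at 105, 118 and 120 FPKM in those 3 libraries and at 32.5 to 81.5 in the others. The 3 tested genes most like Gpam over the 9 libraries, by Pearson correlation of log2(FPKM + 1), were Aacs at 0.985, Lars at 0.983 and Scfd1 at 0.981. These correlations describe 9 libraries in 3 groups and carry no test.

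**Figure D2:**
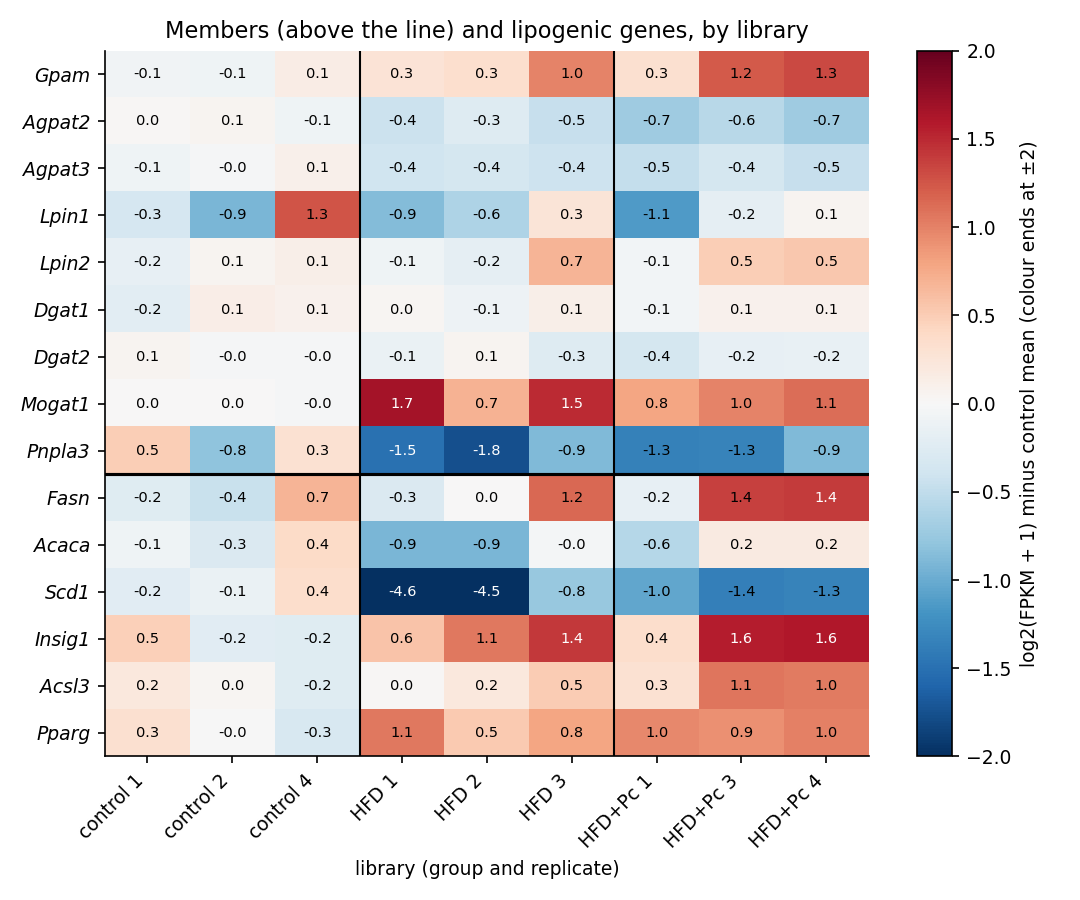
Each cell gives log2(FPKM + 1) of a gene (rows) in a library (columns) minus the mean of the 3 control libraries, with colour ending at 2 in either direction. Gpam and Lpin2 are highest in HFD replicate 3 and HFD+Pc replicates 3 and 4, where Fasn and Insig1 are highest as well, while Agpat2 and Agpat3 are low in all 6 HFD and HFD+Pc libraries. Acaca and Scd1 are instead highest in control replicate 4.

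Within the glycerol-3-phosphate step, Gpam shares the reaction with Gpat4, the main enzyme of the endoplasmic reticulum in liver, and with the minor Gpat3 and Gpat2. Gpam made up 43.8% ± 4.90 of their summed FPKM in control, 56.9% ± 5.59 in HFD and 62.8% ± 11.3 in HFD+Pc (SD, n = 3 each). In both diet groups every library lay above control in this share, with an exact two-sided permutation p of 0.1, the smallest that 3 against 3 libraries can give. Gpat4 was at 39.4 ± 5.83, 30.8 ± 3.28 and 32.3 ± 3.16 FPKM in the order control, HFD and HFD+Pc. Its difference from control did not pass in HFD (-0.34 ± 0.12, limma adjusted p = 0.114) or in HFD+Pc (-0.27 ± 0.12, limma adjusted p = 0.137).

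Gpat3 was scarcer, at 1.25, 2.18 and 2.05 FPKM in control and 4.45, 3.54 and 4.40 in HFD, with no overlap. Its rise of 0.87 ± 0.21 in HFD passed (limma adjusted p = 0.0334), and so did that of 0.70 ± 0.21 in HFD+Pc (limma adjusted p = 0.0381). Neither was stable, since the HFD call held in 2 and the HFD+Pc call in 3 of 9 fits that left out 1 library, being lost in both without any 1 control library, without HFD replicate 1 or without HFD+Pc replicate 4. Without HFD replicate 2 or 3 the HFD call was lost as well, and without HFD+Pc replicate 1 the HFD+Pc call.

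Agpat2 and Agpat3 encode acyltransferases that convert lysophosphatidate to phosphatidate; loss of AGPAT2 causes lipodystrophy with fatty liver in people and mice, and Agpat3 also acts on lysophospholipids. The Agpat2 window, chr2:26604368-26604667 on the minus strand of GRCm38.p6, is shown as that of the member whose 3 groups were fully separated. Capitals mark GGGCGG, which occurred 3 times, with the first pair overlapping by 1 base.
Agpat2: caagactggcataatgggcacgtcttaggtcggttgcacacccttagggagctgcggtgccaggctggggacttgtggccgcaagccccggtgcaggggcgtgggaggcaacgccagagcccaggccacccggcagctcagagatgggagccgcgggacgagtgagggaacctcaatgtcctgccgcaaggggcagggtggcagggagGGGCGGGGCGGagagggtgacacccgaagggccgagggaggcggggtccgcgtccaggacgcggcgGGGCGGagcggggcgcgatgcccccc

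Agpat2 was one of the most abundant members, at 141, 143 and 131 FPKM in control replicates 1, 2 and 4. HFD replicates 1, 2 and 3 held 102, 116 and 101 FPKM, and HFD+Pc replicates 1, 3 and 4 held 83.7, 93.6 and 83.9 FPKM. The 3 groups were fully separated, control highest and HFD+Pc lowest. The mean fell from 138 ± 6.87 FPKM in control to 106 ± 8.36 in HFD and 87.0 ± 5.66 in HFD+Pc (SD, n = 3 each), ratios to control of 0.768 and 0.629.

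The Agpat2 difference from control was -0.38 ± 0.09 in HFD (SE; limma adjusted p = 0.0352) and -0.66 ± 0.09 in HFD+Pc (limma adjusted p = 0.00254). The HFD+Pc call held in all 9 fits that left out 1 library. The HFD call held in 3 of the 9 and was lost without any 1 control library, without HFD replicate 1 or 3, or without HFD+Pc replicate 4, with a highest adjusted p of 0.111. It was also lost with a filter of 0.1 FPKM or none, with TPM scaling and with the control and HFD libraries fitted alone. HFD+Pc stood -0.28 ± 0.09 from HFD, with an unadjusted p under 0.05 and a limma adjusted p of 0.186.

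Agpat3 was measured at 42.2, 44.1 and 47.8 FPKM in control replicates 1, 2 and 4. It was at 33.6, 34.8 and 33.2 FPKM in HFD replicates 1, 2 and 3 and at 31.7, 34.8 and 32.3 FPKM in HFD+Pc replicates 1, 3 and 4. All 6 HFD and HFD+Pc libraries lay below control, and they overlapped each other. The fall against control was -0.39 ± 0.08 in HFD (limma adjusted p = 0.0191) and -0.43 ± 0.08 in HFD+Pc (limma adjusted p = 0.00601). The HFD+Pc call held in all 9 fits without 1 library, and the HFD call in 6, being lost without control replicate 2 or 4 or HFD replicate 1, with a highest adjusted p of 0.0593. Between HFD+Pc and HFD the difference was -0.04 ± 0.08 (limma adjusted p = 0.847).

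Summed over Agpat1 to Agpat5, the transcript of this step was 186 ± 3.97 FPKM in control, 144 ± 9.27 in HFD and 123 ± 7.29 in HFD+Pc (SD, n = 3 each). The 3 groups did not overlap in this sum, with an exact permutation p of 0.1 for each pair, the smallest possible. Agpat2 took 74.3% ± 2.23 of the sum in control, 74.0% ± 1.06 in HFD and 70.5% ± 0.416 in HFD+Pc. Agpat3 took 24.0% ± 1.95, 23.6% ± 0.931 and 26.7% ± 0.340 in the same order, so in HFD+Pc its share was above and that of Agpat2 below every HFD library (exact permutation p = 0.1). Agpat1 and Agpat5, minor isoforms at 2.62 FPKM or less in every library, passed in no comparison by limma with all libraries, and Agpat5 passed in HFD+Pc against control by limma-voom on the recovered reads, at 0.40 ± 0.13 (adjusted p = 0.0419). Lclat1, a lysophospholipid acyltransferase of the same family, rose in HFD+Pc against control by 0.37 ± 0.08 (limma adjusted p = 0.0137), a call lost without control replicate 1 or HFD+Pc replicate 3.

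Genes most like Agpat2 over the 9 libraries were Sumo3 with a Pearson correlation of 0.980, Ik with 0.977 and Erf with 0.970. For Agpat3 they were Slc25a12 with 0.980, Egln2 with 0.971 and Lrp5 with 0.970. Markers of endothelial cells were also mostly lower against control. Of 11 tested, 3 fell in HFD and 2 in HFD+Pc, where 5.35% and 11.9% of all tested genes fell. Their summed level was 116 to 132 FPKM in control, 85.4 to 106 in HFD and 96.7 to 108 in HFD+Pc. From HFD to HFD+Pc 8 of the 11 were higher and 3 lower, none passing. Against control, 9.97% of all tested genes passed in HFD and 23.1% in HFD+Pc, in either direction. Of 11 stellate cell markers 2 fell in HFD, and 1 rose and 3 fell in HFD+Pc. Of 14 macrophage markers 1 rose in HFD and 3 fell in HFD+Pc. From HFD to HFD+Pc 7 stellate markers were higher and 4 lower, and 0 macrophage markers were higher and 14 lower, none passing. Unadjusted limma p-values under 0.05 were held there by 3 endothelial, 1 stellate and 7 macrophage markers, where 15.6% of all tested genes did so. The part of these cell types in the result was not tested. In bulk liver, fewer cells of a type and less RNA per cell cannot be told apart.

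**Figure D3:**
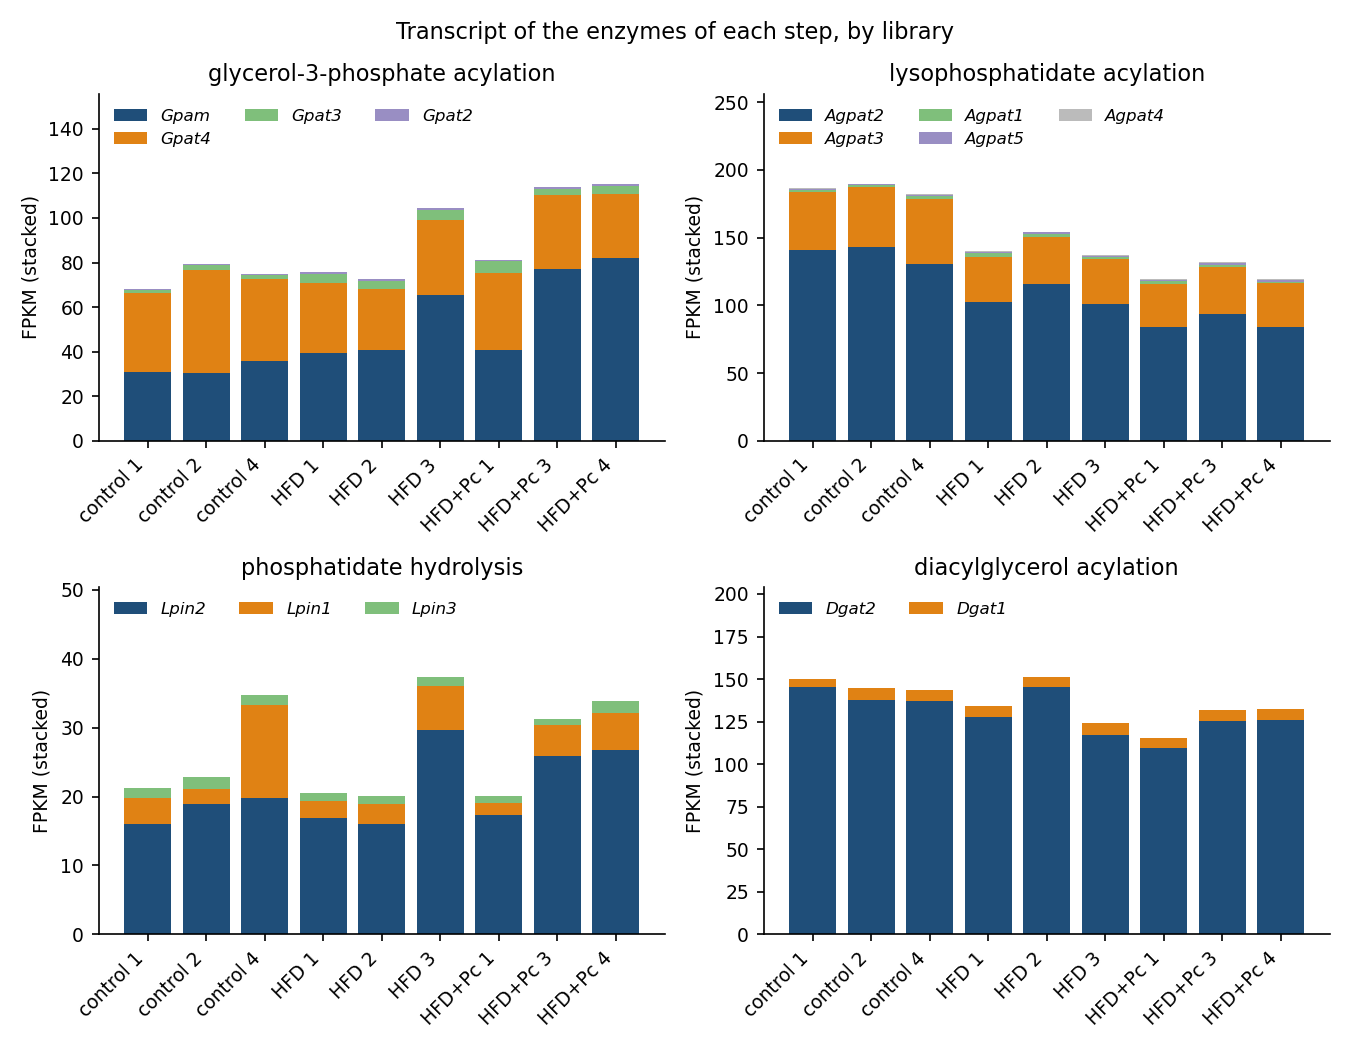
FPKM of the enzymes of 4 steps stacked by library (x axis, group and replicate; y axis from 0). The lysophosphatidate step is lower in all HFD and HFD+Pc libraries than in control, the glycerol-3-phosphate step is highest in HFD replicate 3 and HFD+Pc replicates 3 and 4, and Dgat2 makes up nearly all of the diacylglycerol step.

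Lpin1 and Lpin2 encode phosphatidate phosphatases, and lipin 1 also acts in the nucleus as a coactivator of PPAR-alpha targets and is induced by fasting. Lpin1 was measured at 3.84, 2.22 and 13.5 FPKM in control replicates 1, 2 and 4. HFD replicates 1, 2 and 3 gave 2.35, 2.97 and 6.28 FPKM, and HFD+Pc replicates 1, 3 and 4 gave 1.77, 4.40 and 5.33 FPKM. Control replicate 4 was the highest of all libraries and control replicate 2 among the lowest, so the 3 groups overlapped throughout. The differences from control were -0.41 ± 0.55 in HFD (limma adjusted p = 0.671) and -0.42 ± 0.55 in HFD+Pc (limma adjusted p = 0.611). Both changed sign without control replicate 4, to 0.22 and 0.21. The gap between HFD+Pc and HFD was -0.01 ± 0.55 (limma adjusted p = 0.997), and 0.32 without HFD replicate 3 or 0.35 without HFD+Pc replicate 1, neither of which passed. Without HFD replicate 3 the HFD difference from control was -0.74, and without HFD+Pc replicate 1 the HFD+Pc difference was -0.058.

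Lpin2, the lipin that prevails in liver, was measured at 16.0, 18.9 and 19.7 FPKM in control replicates 1, 2 and 4. HFD replicates 1, 2 and 3 held 16.9, 16.0 and 29.7 FPKM, and HFD+Pc replicates 1, 3 and 4 held 17.4, 25.9 and 26.8 FPKM. HFD replicate 3 and HFD+Pc replicates 3 and 4 were again the highest and the other 6 libraries lay together. Lpin2 did not pass in HFD (0.14 ± 0.24, limma adjusted p = 0.741) or in HFD+Pc (0.32 ± 0.24, limma adjusted p = 0.348) against control. Without HFD replicate 3 the HFD difference became -0.13, and without HFD+Pc replicate 1 the HFD+Pc difference became 0.51 (limma adjusted p = 0.163). The gap between HFD+Pc and HFD was 0.18 ± 0.24 (limma adjusted p = 0.758) with all libraries, 0.46 without HFD replicate 3 (limma adjusted p = 0.241), 0.38 without HFD+Pc replicate 1 (limma adjusted p = 0.479) and 0.028 without HFD replicate 2 (limma adjusted p = 0.978).

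Lpin2 accounted for 71.6% ± 13.4 of the summed lipin FPKM in control, 80.8% ± 1.87 in HFD and 82.9% ± 3.68 in HFD+Pc (SD, n = 3 each). The control figure ranged from 56.7% in replicate 4, where Lpin1 was high, to 82.8%. No lipin share differed between groups beyond this spread, with exact permutation p-values of 0.2 to 0.6. Lpin3, the remaining lipin, lay between 0.904 and 1.70 FPKM in every library and passed in no comparison with all libraries. Without HFD+Pc replicate 4 it passed in HFD+Pc against control, at -0.41 (limma adjusted p = 0.0360).

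Dgat1 and Dgat2 encode the unrelated enzymes of the last acylation; DGAT2 is associated with newly made fatty acids and DGAT1 with re-esterification of supplied ones. Dgat2 was measured at 145, 138 and 137 FPKM in control replicates 1, 2 and 4. It was at 128, 146 and 117 FPKM in HFD replicates 1, 2 and 3 and at 109, 125 and 126 FPKM in HFD+Pc replicates 1, 3 and 4. The HFD libraries overlapped both other groups, whereas every HFD+Pc library lay below control. Dgat2 did not pass in HFD (-0.11 ± 0.10, limma adjusted p = 0.517) or in HFD+Pc (-0.22 ± 0.10, limma adjusted p = 0.143) against control, or between HFD+Pc and HFD (-0.11 ± 0.10, limma adjusted p = 0.658).

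Dgat1 was at 5.14, 6.82 and 6.55 FPKM in control, 6.35, 5.68 and 6.77 in HFD, and 5.88, 6.60 and 6.57 in HFD+Pc, each in the order of the replicate numbers. All 3 groups overlapped and the highest library was only 1.33 times the lowest, the smallest range among the 9 members. The differences were 0.02 ± 0.11 in HFD and 0.04 ± 0.11 in HFD+Pc against control, and 0.02 ± 0.11 between HFD+Pc and HFD, with limma adjusted p-values of 0.906, 0.805 and 0.957. Dgat2 transcript made up 95.8% ± 0.703 of the pair in control, 95.3% ± 0.854 in HFD and 95.0% ± 0.0658 in HFD+Pc.

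**Figure D4:**
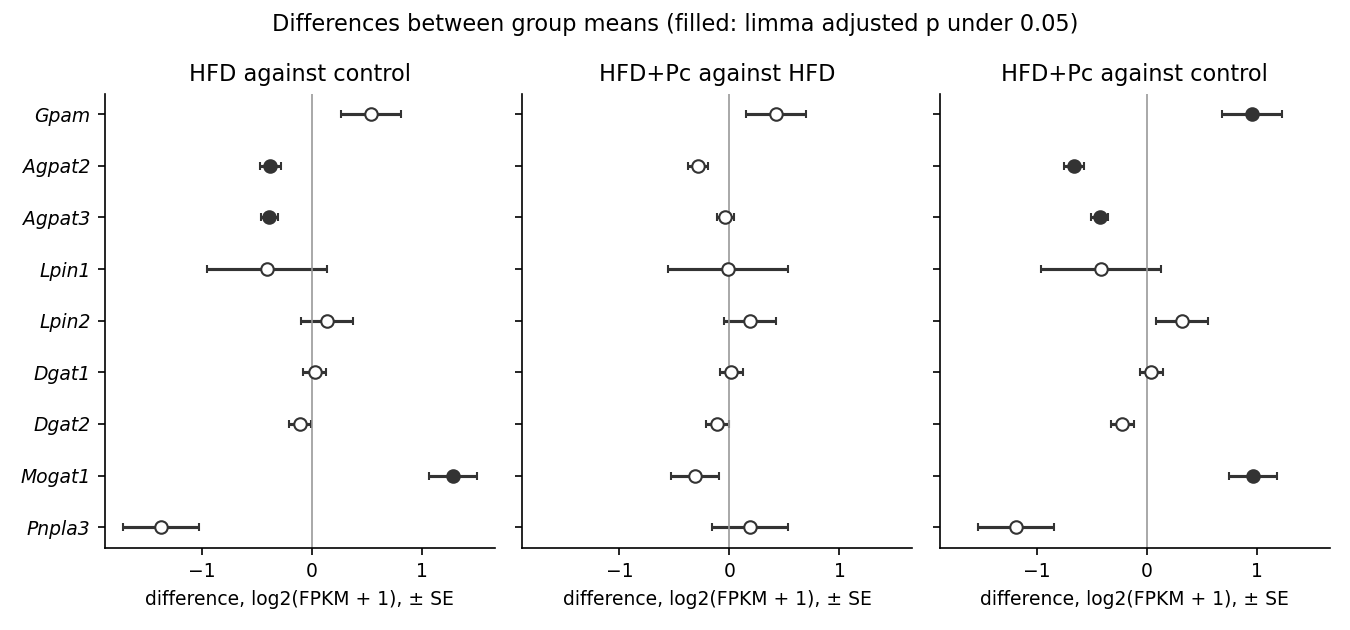
Difference between group means on log2(FPKM + 1) with its standard error (x axis) for the 9 enzymes in the 3 comparisons; filled points had a limma adjusted p under 0.05, and Pnpla3 comes from the fit with the lower filter. Mogat1, Agpat2 and Agpat3 are filled against control in both diet groups, Gpam in HFD+Pc alone, and none is filled between HFD+Pc and HFD.

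Mogat1 encodes the monoacylglycerol acyltransferase of the shorter route, an enzyme scarce in lean mouse liver and known as a target of PPAR-gamma in fatty liver. Its window, chr1:78510810-78511109 on the plus strand of GRCm38.p6, is shown as that of the member with the largest rise. The only match, in capitals, was CCAAT read on the opposite strand downstream of the start.
Mogat1: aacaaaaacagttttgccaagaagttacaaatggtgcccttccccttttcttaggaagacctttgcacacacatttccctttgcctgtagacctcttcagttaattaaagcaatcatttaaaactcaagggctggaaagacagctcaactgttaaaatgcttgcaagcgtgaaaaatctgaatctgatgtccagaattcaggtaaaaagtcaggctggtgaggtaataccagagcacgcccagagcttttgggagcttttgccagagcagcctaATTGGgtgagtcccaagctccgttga

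Mogat1 was measured at 0.412, 0.416 and 0.390 FPKM in control replicates 1, 2 and 4, which corresponds to 12, 11 and 11 reads. HFD replicates 1, 2 and 3 gave 3.46, 1.27 and 2.94 FPKM from 99, 34 and 77 reads. HFD+Pc replicates 1, 3 and 4 gave 1.43, 1.80 and 2.05 FPKM from 39, 47 and 54 reads. Control libraries were nearly identical and low, all 6 others lay above them, and HFD spanned the whole range of HFD+Pc. The group means of 0.406 ± 0.0136, 2.56 ± 1.14 and 1.76 ± 0.312 FPKM (SD, n = 3 each) gave ratios to control of 6.30 in HFD and 4.34 in HFD+Pc.

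On log2(FPKM + 1), which understates the change of a gene this low, Mogat1 rose by 1.28 ± 0.22 in HFD (limma adjusted p = 0.0133) and by 0.97 ± 0.22 in HFD+Pc (limma adjusted p = 0.0146). With a pseudocount of 0.1 the differences were 2.28 and 1.87, and with limma-voom on the recovered reads 2.49 and 2.05. Both calls held in all 9 fits without 1 library and were lost with no filter, at limma adjusted p-values of 0.0512 and 0.0507. The fits without 1 library kept the filter that Mogat1 passed through its HFD and HFD+Pc libraries alone. HFD+Pc stood -0.31 ± 0.22 from HFD (limma adjusted p = 0.540); without HFD replicate 2, the lowest HFD library, this became -0.61 (limma adjusted p = 0.143).

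Cfd, an adipocyte marker that encodes the serine protease adipsin, was at 0.116, 0.128 and 0 FPKM in control, 21.8, 9.92 and 5.23 in HFD, and 5.95, 2.33 and 5.20 in HFD+Pc, in the order of the replicate numbers. All 6 HFD and HFD+Pc libraries lay above control, and HFD replicate 1 was highest in both Cfd and Mogat1. Cfd rose by 3.42 ± 0.43 in HFD (limma adjusted p = 0.00532) and by 2.28 ± 0.43 in HFD+Pc (limma adjusted p = 0.00767), in all 9 fits without 1 library each, but did not pass by limma-voom on the recovered reads. Like Mogat1, Cfd passed the filter through its HFD and HFD+Pc libraries alone, so its entry into the test already required a difference. HFD replicate 1 also held 1.54 FPKM of Adipoq. Among 14 adipocyte markers, Adipoq, Lep, Retn, Plin1, Adig and Slc36a2 were at 0 in every control and every HFD+Pc library. The marker list summed to 1278.5 to 1872 FPKM in control, 1153 to 1334 in HFD and 991 to 1440.2 in HFD+Pc, most of it from Pck1 and Car3, which hepatocytes also express. Of the 7 markers tested, 1 rose and 1 fell in HFD, and 1 rose and 2 fell in HFD+Pc. Shares of all tested genes that passed were 9.97% and 23.1%. Without HFD replicate 1 the rise of Mogat1 in HFD was 1.09 (limma adjusted p = 0.0327). The part of adipocyte transcripts in the Mogat1 result was not tested.

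Pparg, the receptor named above as a regulator of Mogat1, was at 2.28, 1.63 and 1.12 FPKM in control, 4.48, 2.80 and 3.55 in HFD, and 4.12, 3.98 and 4.31 in HFD+Pc. It did not overlap between control and either other group. Its rise of 0.79 ± 0.17 in HFD (limma adjusted p = 0.0234) was lost without control replicate 2 or 4 or HFD replicate 1 or 3, and that of 0.96 ± 0.17 in HFD+Pc (limma adjusted p = 0.00557) held in all 9 fits. Mogat2, the intestinal isozyme, stayed at 0.175 FPKM or less in every library and was not tested. The genes most like Mogat1 were Atp6v1b2 with a Pearson correlation of 0.978, Rad51b with 0.972 and Psma6 with 0.967.

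Pnpla3 encodes a lipid droplet protein with lipase and acyltransferase activities in vitro, driven by SREBP-1c and ChREBP after feeding and known for a human variant tied to fatty liver. Its window, chr15:84167566-84167865 on the plus strand of GRCm38.p6, is shown as that of the member with the largest difference from control to the low side. Capitals mark GGGCGG on either strand, 3 times, and CCAAT on the opposite strand, once.
Pnpla3: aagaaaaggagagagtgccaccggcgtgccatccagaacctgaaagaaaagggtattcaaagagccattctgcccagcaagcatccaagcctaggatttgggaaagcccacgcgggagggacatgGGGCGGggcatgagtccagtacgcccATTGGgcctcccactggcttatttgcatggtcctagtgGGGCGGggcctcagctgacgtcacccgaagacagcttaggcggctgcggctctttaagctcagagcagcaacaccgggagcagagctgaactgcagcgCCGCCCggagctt

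Pnpla3 was measured at 3.80, 0.950 and 3.18 FPKM in control replicates 1, 2 and 4, from 110, 25 and 89 reads. HFD replicate 1 held 0.211 FPKM from 6 reads, replicate 2 was listed at 0 and replicate 3 held 0.845 FPKM from 22 reads. HFD+Pc replicates 1, 3 and 4 gave 0.332, 0.347 and 0.841 FPKM from 9, 9 and 22 reads. All 6 of these libraries lay below the lowest control library, and they overlapped each other. A count of 0 in HFD replicate 2 allows up to 3 reads, or 0.113 FPKM, a limit that covers counting error only.

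The mean of Pnpla3 was 2.64 ± 1.5 FPKM in control, 0.352 ± 0.440 in HFD and 0.507 ± 0.290 in HFD+Pc (SD, n = 3 each). With the filter of 0.1 FPKM, which keeps 17488 genes, the differences of -1.38 ± 0.34 in HFD (limma adjusted p = 0.0604) and -1.19 ± 0.34 in HFD+Pc (limma adjusted p = 0.0547) did not pass. Without control replicate 2, the low control library, both passed at -1.78 (limma adjusted p = 0.0324) and -1.59 (limma adjusted p = 0.020). The HFD+Pc difference also passed without HFD replicate 3 (limma adjusted p = 0.0465). Between HFD+Pc and HFD the difference was 0.19 ± 0.34 (limma adjusted p = 0.881).

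Counted by separation of the groups rather than by test, 2 of the 9 members lay wholly above and 3 wholly below control in HFD, where 16.5% and 16.4% of tested genes did so. In HFD+Pc 2 lay above and 4 below control, against 22.1% and 20.8% of tested genes. These member counts include Pnpla3, below control in both groups, which is not among the tested genes. They also include Mogat1, above control in both, which passed the filter only through its HFD and HFD+Pc libraries. Only Agpat2 separated HFD+Pc from HFD, on the low side, as did 9.56% of tested genes, while no member lay on the high side, where 10.2% did. The median difference over the 8 tested members was -0.04 in HFD and -0.09 in HFD+Pc against control, and -0.03 between HFD+Pc and HFD, where the medians over all tested genes were -0.00087, 0.0083 and 0.0094.

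Genes that feed, bypass or follow the route were counted from lists of known function. Against control, 9.97% of all tested genes passed in HFD and 23.1% in HFD+Pc. Of 12 genes that supply glycerol-3-phosphate and acyl-CoA, none passed in HFD by limma or limma-voom with all libraries, and 2 had an unadjusted p under 0.05 in either. In HFD+Pc 2 rose, Acsl3, a long-chain acyl-CoA synthetase, by 0.81 ± 0.22 (limma adjusted p = 0.0293) and Aqp9, the glycerol channel of hepatocytes, by 0.31 ± 0.09 (limma adjusted p = 0.0302). Acsl3 was highest in HFD+Pc replicates 3 and 4, at 12.4 and 12.1 FPKM against 4.35 to 8.04 elsewhere, and its call was lost without either of them or without control replicate 2 or 4. That of Aqp9 was lost without any 1 control library or without HFD+Pc replicate 1 or 3. In HFD+Pc against HFD no gene of this list, or of the 4 described next, passed by limma or limma-voom with all libraries. Without HFD replicate 3, 2 of them did. Acsl4, another long-chain acyl-CoA synthetase, then stood 0.64 above HFD (limma adjusted p = 0.0157), against 0.36 with all libraries (limma adjusted p = 0.430). Lipa, the lysosomal acid lipase, stood 0.48 above HFD (limma adjusted p = 0.0444), against 0.41 with all libraries (limma adjusted p = 0.0681). In the same fit both passed in HFD against control, at -0.62 (limma adjusted p = 0.0124) for Acsl4 and -0.37 (limma adjusted p = 0.0463) for Lipa. Unadjusted limma p-values under 0.05 were held there by 3 of the 12 supply genes, 5 of 18 phospholipid genes, 4 of 14 hydrolysis genes, 6 of 14 packaging genes and 4 of 20 regulators, where 15.6% of all tested genes did so. Limma-voom gave 4 for each of these lists.

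Of 18 tested genes of the competing phospholipid routes, 1 rose and 2 fell in HFD, and 4 rose and 1 fell in HFD+Pc. Shares of all tested genes that passed were 9.97% and 23.1%. Chpt1, a cholinephosphotransferase that turns diacylglycerol into phosphatidylcholine, was at 29.7, 31.9 and 28.5 FPKM in control, 53.9, 43.9 and 50.9 in HFD, and 51.5, 46.9 and 48.5 in HFD+Pc. Every HFD and HFD+Pc library was above control, and the rises of 0.70 ± 0.09 (limma adjusted p = 0.00599) and 0.69 ± 0.09 (limma adjusted p = 0.00237) held in all 9 fits without 1 library. Chka, choline kinase, rose in HFD+Pc by 0.55 ± 0.13 (limma adjusted p = 0.0152). Plpp1, a membrane lipid phosphate phosphatase, fell by 0.73 ± 0.12 in HFD (limma adjusted p = 0.0103) and by 0.53 ± 0.12 in HFD+Pc (limma adjusted p = 0.0131), the latter lost without HFD+Pc replicate 3. Cds2, which diverts phosphatidate to CDP-diacylglycerol, fell in HFD by 0.42 ± 0.09 (limma adjusted p = 0.0252), lost without any 1 control library or without HFD replicate 2 or 3.

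Of 14 genes of triglyceride hydrolysis, 1 rose and 2 fell in HFD, and 3 rose and 3 fell in HFD+Pc. Shares of all tested genes that passed were 9.97% and 23.1%. Pnpla2, adipose triglyceride lipase, was at 46.4, 44.5 and 52.9 FPKM in control, 30.9, 25.7 and 35.6 in HFD, and 26.5, 20.1 and 20.4 in HFD+Pc. Control lay above both other groups. Its fall of 1.07 ± 0.14 in HFD+Pc (limma adjusted p = 0.00200) held in all 9 fits, and that of 0.63 ± 0.14 in HFD (limma adjusted p = 0.0264) was lost without any 1 control library or without HFD replicate 1 or 2. G0s2, an inhibitor of that lipase, fell by 1.94 ± 0.31 in HFD (limma adjusted p = 0.0103) and by 1.75 ± 0.31 in HFD+Pc (limma adjusted p = 0.00585), both in all 9 fits. Ces1g, a carboxylesterase, rose by 0.84 ± 0.21 in HFD+Pc (limma adjusted p = 0.0216), lost without HFD+Pc replicate 3 or 4. Pnpla8 and Ces3a also rose in HFD+Pc, by 0.33 and 0.60, and Ces3a in HFD by 0.71; the Pnpla8 call held in 5 of 9 fits without 1 library and each Ces3a call in 1.

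Of 14 tested genes of droplet and lipoprotein packaging, 2 rose and 2 fell in HFD, and 3 rose and 2 fell in HFD+Pc. Shares of all tested genes that passed were 9.97% and 23.1%. Fitm1, which partitions triglyceride into droplets, rose by 1.22 ± 0.25 in HFD (limma adjusted p = 0.0233), lost without control replicate 2 or HFD replicate 1 or 2, and by 1.37 ± 0.25 in HFD+Pc (limma adjusted p = 0.00736) in all 9 fits. Hsd17b11, a droplet-associated dehydrogenase, rose in HFD+Pc by 0.74 ± 0.15 (limma adjusted p = 0.00929) in all 9 fits, and in HFD by 0.60 in 2 of 9. Tm6sf2, which aids lipidation of lipoproteins, was at 16.1, 17.9 and 23.2 FPKM in control, 11.2, 8.49 and 10.4 in HFD, and 10.6, 10.7 and 10.1 in HFD+Pc. It fell by 0.85 ± 0.13 (limma adjusted p = 0.00942) and 0.79 ± 0.13 (limma adjusted p = 0.00480), in all 9 fits each. Cideb, a droplet and lipoprotein assembly factor, fell in HFD+Pc by 0.57 ± 0.09 (limma adjusted p = 0.00355) in all 9 fits. Hilpda, an inhibitor of Pnpla2, fell in HFD by 0.52, a call that held in 2 of 9.

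**Figure D5:**
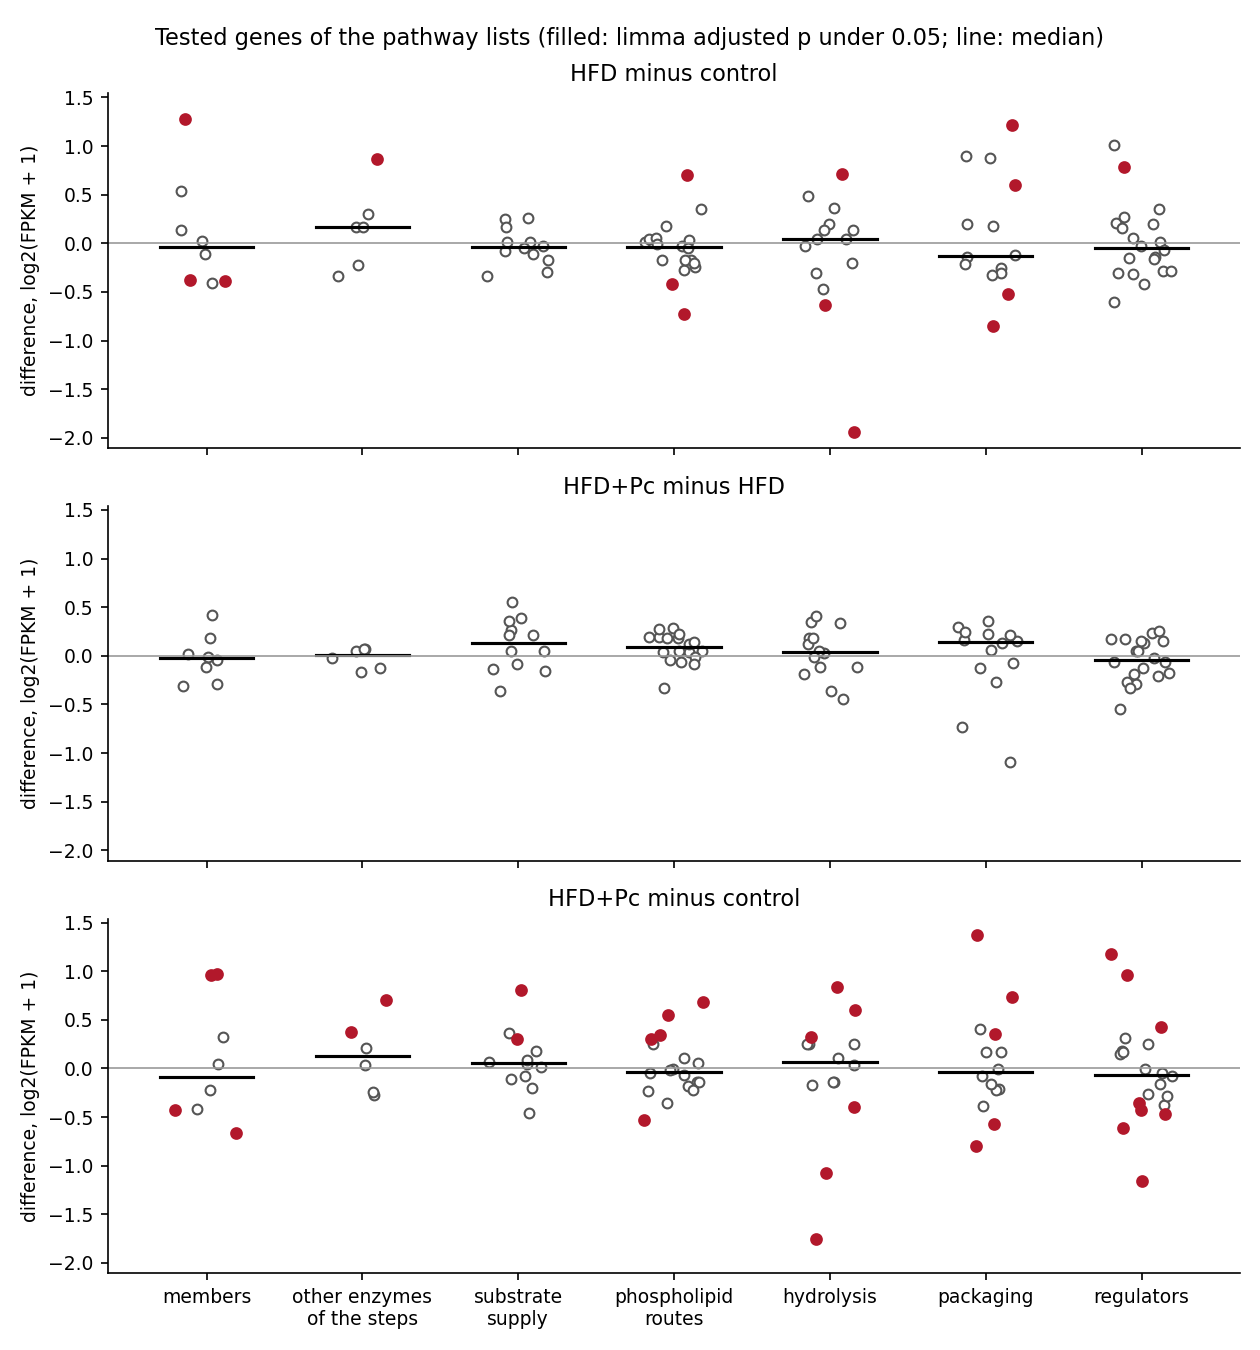
Each point is a tested gene of a list (x axis) with its difference on log2(FPKM + 1) (y axis); the top and bottom panels set HFD and HFD+Pc against control and the middle one sets HFD+Pc against HFD. Filled points had a limma adjusted p under 0.05, lines are list medians, and filled points lie on both sides of 0 in most lists against control, and none is filled between HFD+Pc and HFD.

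Of 20 regulators of these enzymes, Pparg alone passed in HFD with all libraries, while 3 rose and 5 fell in HFD+Pc. Shares of all tested genes that passed were 9.97% and 23.1%. Insig1 rose by 1.18 ± 0.36 in HFD+Pc (limma adjusted p = 0.0443), a call that held in 3 of 9 fits without 1 library and was lost without any 1 control library, without HFD replicate 2 or without HFD+Pc replicate 3 or 4. In HFD it was 1.01 above control (limma adjusted p = 0.110), which passed when HFD+Pc replicate 1 was left out (limma adjusted p = 0.0458). Cebpb, a transcription factor, fell by 1.15 ± 0.20 (limma adjusted p = 0.00568) and Nr1h2, liver X receptor beta, by 0.61 ± 0.10 (limma adjusted p = 0.00497), both in all 9 fits. Srebf1 and Mlxipl, which encode SREBP-1 and ChREBP, passed in no comparison by limma, with all libraries or without any 1. Srebf1 was at 29.5 ± 5.02, 38.1 ± 7.11 and 34.2 ± 9.44 FPKM and Mlxipl at 25.4 ± 2.12, 29.6 ± 2.78 and 24.4 ± 5.90 FPKM in control, HFD and HFD+Pc (SD, n = 3 each). Of 12 fatty acid synthesis genes 2 fell in HFD and 1 in HFD+Pc, where 5.35% and 11.9% of all tested genes fell. In HFD these were Scd1 (-3.26 ± 0.85, limma adjusted p = 0.0443) and Scd2 (-0.49 ± 0.10, limma adjusted p = 0.0222). In HFD+Pc it was Scd2 (-0.45 ± 0.10, limma adjusted p = 0.0141). By limma-voom on the recovered reads 1 of the 12 passed in each. Without HFD replicate 3, Acacb, Elovl5, Elovl6, Fads1 and Fads2 also passed in HFD, all lower than control. Their limma adjusted p-values were 0.00951, 0.00441, 0.0385, 0.00539 and 0.0147, where 578 of 10888 tested genes passed. Elovl5, Fads1 and Fads2 then also stood above HFD in HFD+Pc (limma adjusted p = 0.0113, 0.0173 and 0.0366), where 123 genes passed. With all libraries none of the 12 did.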

How the data were processed

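The authors deposited 1 table of FPKM for 9 liver libraries of total RNA extracted with Trizol, per the labels' protocols. The aligner was HISAT2 2.0.5 and the genome build GRCm39, per the submitters' processing notes. The counter, its annotation and its use of strand are not given in the sources used here, so overlapping genes cannot be told apart. A gene table gave symbols to 52093 of 53700 Ensembl identifiers, and 307 rows had no identifier. Whole reads were recovered from the FPKM steps for 99.4% of the 26278 rows above 0, within 0.02 of a whole number; the reads of Alb were rounded. The FPKM divisor was 97.4% to 108% of these totals, and 3 reads in 1 kilobase gave 0.160 to 0.179 FPKM.

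Values were tested as log2(FPKM + 1) with limma 3.58.1 in R 4.3.3 (eBayes with trend and robust), all 9 libraries in 1 model with 1 mean per group, and Benjamini-Hochberg adjustment over all 10988 genes with 1 FPKM or more in 3 libraries. The threshold was 0.05. Pnpla3, below that filter, was fitted with 0.1 FPKM, a choice made after seeing the data. Alternatives were other pseudocounts, filters and scalings, plain eBayes, the compared groups alone, a replicate block, limma-voom on recovered reads, and leaving out each library. Tables and figures used Python 3.11.15, pandas 2.3.3, numpy 2.4.6 and matplotlib 3.10.9. Promoter windows are RefSeq's on GRCm38.p6, an earlier build than the authors'.

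The members and gene lists were chosen with earlier results of these data known. All 9 members are named. From each other pathway list at most 2 passing genes per direction and comparison with the lowest adjusted p are named, and for each passing member the 3 tested genes most correlated with it. The Scd1 and Insig1 levels of single libraries, Acaca, Acacb, Elovl5, Elovl6, Fads1 and Fads2 are named outside that rule, after their values were seen. The same holds for Fasn, Alb, Gpat4, Srebf1, Mlxipl, Acsl4, Lipa, minor isoforms and the adipocyte markers.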

Additional observations from a re-analysis of the deposited data

How the results depend on the processing

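Of the 27 differences of members (9 genes in 3 comparisons), 276 of 294 refits under other settings and 213 of 243 without 1 library kept direction and side of the threshold. For 48 differences of other named genes these numbers were 461 of 528 and 334 of 432, and none of those changed sign. Members passing against control, 3 in HFD and 4 in HFD+Pc, became 0 and 2 with no filter, where 4 and 5 still had an unadjusted limma p under 0.05, and were 1 to 3 and 3 to 4 when 1 library was left out. All genes passing numbered 1095 in HFD against control, 69 in HFD+Pc against HFD and 2538 in HFD+Pc against control. In that order they were 725, 27 and 2246 with a filter of 0.1 FPKM, and 209, 3 and 1383 with none. The compared groups alone gave 680 and 22 in the first 2 comparisons. In HFD+Pc against HFD alone the count was 113 with TPM scaling, 107 with quantile scaling, 30 with plain eBayes and 122 with limma-voom. Leaving out 1 library gave 332 to 1126, 5 to 123 and 1396 to 2644. With TPM scaling the split in HFD against control was 590 higher and 395 lower, against 507 and 588. Some signs turned: in HFD+Pc against HFD, Lpin1 was 6.613e-05 with quantile scaling and Dgat1 was -0.039 with TPM scaling. Leaving out 1 library, Lpin1 ranged from -0.87 to 0.22 in HFD against control, from -0.25 to 0.35 in HFD+Pc against HFD and from -0.88 to 0.21 in HFD+Pc against control; Dgat1 ranged from -0.083 to 0.091, -0.042 to 0.067 and -0.066 to 0.11. Lpin2 ranged from -0.13 to 0.29 in HFD against control and Pnpla3 from -0.0053 to 0.44 in HFD+Pc against HFD. The labels do not say what the replicate numbers mean. Groups share only 2 numbers per comparison, and deviations of same-numbered libraries correlated at -0.119 to 0.0533. So few pairs cannot decide whether the numbers pair the libraries. With a replicate block, 1 member passed in HFD (Mogat1, limma adjusted p = 0.0486) and Mogat1 did not in HFD+Pc (0.0710), the counts of all genes were 232, 3 and 1058, and in HFD+Pc against HFD Dgat1 was -0.0054 and Pnpla3 -0.17; Pnpla3 passed in HFD+Pc against control (0.0461). The cause of these changes was not tested. Depth limits Mogat1 (11 to 99 reads) and Pnpla3 (0 to 110 reads).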

Other observations

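Clock genes lie outside the route. Of 11 tested, 2 rose and 1 fell in HFD and likewise in HFD+Pc against control, where 9.97% and 23.1% of all tested genes passed, and none passed in HFD+Pc against HFD by limma or limma-voom, with 0 and 1 at an unadjusted p under 0.05, where 15.6% of all tested genes had one by limma. Nr1d1, a repressor of the clock that cycles strongly in liver, was at 8.91, 7.27 and 4.71 FPKM in control, 17.1, 13.2 and 11.6 in HFD, and 12.4, 12.8 and 12.1 in HFD+Pc. It rose by 0.93 ± 0.19 (limma adjusted p = 0.0231), lost without control replicate 2 or HFD replicate 1 or 2, and by 0.79 ± 0.19 (limma adjusted p = 0.0201), lost without HFD+Pc replicate 3. Its paralogue Nr1d2 rose by 0.69 in HFD, held in 2 of 9 fits without 1 library, and by 0.77 in HFD+Pc (limma adjusted p = 0.0124), held in all 9. Per1, a light- and feeding-responsive clock gene, was at 3.85, 3.87 and 2.86 FPKM in control, 1.31, 1.09 and 1.23 in HFD, and 0.467, 1.14 and 1.93 in HFD+Pc. It fell by 1.03 ± 0.22 in HFD (limma adjusted p = 0.0238), held in 4 of 9 fits, and by 1.10 ± 0.22 in HFD+Pc (limma adjusted p = 0.00916), held in all 9. Of 12 fasting response genes 6 fell in HFD and 5 in HFD+Pc, where 5.35% and 11.9% of all tested genes fell. Limma-voom passed 6 and 3. Pck1 stood at -1.73 ± 0.24 in HFD (limma adjusted p = 0.00670) and -1.60 ± 0.24 in HFD+Pc (limma adjusted p = 0.00356). G6pc stood at -1.61 ± 0.27 in HFD (limma adjusted p = 0.0127) and -1.29 ± 0.27 in HFD+Pc (limma adjusted p = 0.0112). Both G6pc calls held in all 9 fits without 1 library. Cpt1a fell in HFD (-0.57 ± 0.13, limma adjusted p = 0.0253), held in 5 of 9 fits. In HFD+Pc Cpt1a stood at -0.64 ± 0.13 (limma adjusted p = 0.00832), held in all 9. The labels give no hour of sampling or fasting state.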
